A study of Mus musculus with 24 samples.

Results

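The 10 genes that mark intercalated cells or serve acid-base transport in them were followed through all 24 kidney libraries of the series: Slc4a1, Aqp6, Slc26a4, Slc4a9, Insrr, Atp6v1b1, Atp6v0d2, Atp6v1g3, Foxi1 and Rhbg. They were chosen by symbol, and each matched 1 of the 54532 gene identifiers in the count files. All 10 members passed the filter on low counts. The libraries come from bulk RNA sequencing of whole kidney of mice fed a Western diet, with 6 libraries in each of 4 groups: wild-type mice (WT) after 2 weeks of diet, Lrp2-deficient mice (KO) after 2 weeks, wild-type mice after 12 weeks, and Lrp2-deficient mice after 12 weeks. The study describes the knockout as specific to proximal tubule cells, the wild-type animals as littermates, and calls the strain PTC LRP2-SM22, a name it does not explain. The sources used here do not give the driver of the deletion or the age and sex of the mice. Western diet was common to all 4 groups, so no library shows these genes without it.

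Intercalated cells are the acid-base cells of the connecting tubule and collecting duct. Type A cells secrete acid through an apical proton pump, the V-ATPase, and return bicarbonate to the blood through the basolateral anion exchanger encoded by Slc4a1. Type B cells secrete bicarbonate through pendrin, the apical exchanger encoded by Slc26a4, and carry the exchanger of Slc4a9 on their basolateral side. Foxi1 is the transcription factor that both types need to form. Principal cells, their neighbours, reabsorb sodium and water.

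Total counts ran from 15.6 to 34.1 M (megacounts, 1 M being 1e+06 counts) per library at 2 weeks and from 11.3 to 15.2 M at 12 weeks. Levels are in CPM, counts per megacount of a library scaled by TMM (trimmed mean of M values), and where genes are compared with each other they are divided by exon length (FPKM, CPM per kilobase of merged exons). Lrp2, the targeted gene, lay between 1410 and 2503 CPM in wild-type libraries and between 186 and 584 CPM in knockout libraries, and the groups did not overlap at either duration. Markers of the expected kidney segments were present in all groups, with mean levels from 2268 to 3010 CPM for Umod of the thick ascending limb, from 789 to 2556 CPM for Slc12a3 of the distal convoluted tubule and from 88.0 to 128 CPM for Aqp2 of principal cells. Of the 9 segment markers, Lrp2 among them, 6 were called lower in knockout at 2 weeks and 4 at 12 weeks, with 1 higher at 12 weeks. Among all tested genes 13.4% were called lower at 2 weeks and 17.7% at 12 weeks. Slc12a3, of the segment upstream of the connecting tubule, fell to 65.8% and 72.6% of wild type (edgeR adjusted p = 0.00161 and 0.0248). The libraries of the 2 durations carry different name series in the files, so duration and library set cannot be told apart. The sets also differ in what was counted: Gm42418 had 0 counts in all 2-week libraries and 71635 to 424892 counts in the 12-week ones. Avpr2, which shares 2347 exon bases with Arhgap4 on the opposite strand, had a wild-type mean of 0.501 ± 0.314 CPM at 2 weeks and 14.1 ± 1.54 CPM at 12 weeks. The labels do not say that each library is a separate mouse, so p-values measure the spread between these libraries, which may be technical. In whole-kidney RNA, fewer intercalated cells and less RNA per cell cannot be told apart.

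After 2 weeks of diet 9 of the 10 genes were lower in knockout than in wild-type kidneys and none was higher; Atp6v0d2 did not pass. After 12 weeks 8 were lower and none was higher, with Foxi1 and Aqp6 not passing. The largest differences at both durations were those of the type B gene Insrr at 2 weeks (42.8% of wild type) and at 12 weeks (37.7%), and the type A gene Slc4a1 stood at 45.5% and 60.7%. These counts stand against a background of 31.6% of all 17286 tested genes called at 2 weeks, 13.4% lower, and 38.5% called at 12 weeks, 17.7% lower (two-sided edgeR quasi-likelihood test; a call is an adjusted p below 0.05 by Benjamini-Hochberg over all tested genes). The median log2 fold change of the 10 members was -0.53 at 2 weeks and -0.62 at 12 weeks, and that of all tested genes -0.01 and 0.00. For 7 called members at 2 weeks and 6 at 12 weeks every knockout library lay below every wild-type library, which held for 6.32% and 8.3% of all tested genes. The share of mitochondrial counts was also lower in knockout at 12 weeks with no overlap (12.1 to 14.5% in wild type, 9.31 to 11.9% in knockout), and the TMM factors were apart there (0.822 to 0.895 and 0.994 to 1.11). At 2 weeks both overlapped (8.11 to 9.83% and 5.56 to 10.1%; 0.954 to 1.06 and 1.00 to 1.17). The part of the mitochondrial share in the members' differences was not tested. Without the TMM factors 6 members were called lower at each duration, and the median log2 fold change of all tested genes moved to 0.13 and 0.23.

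**Figure D1:**
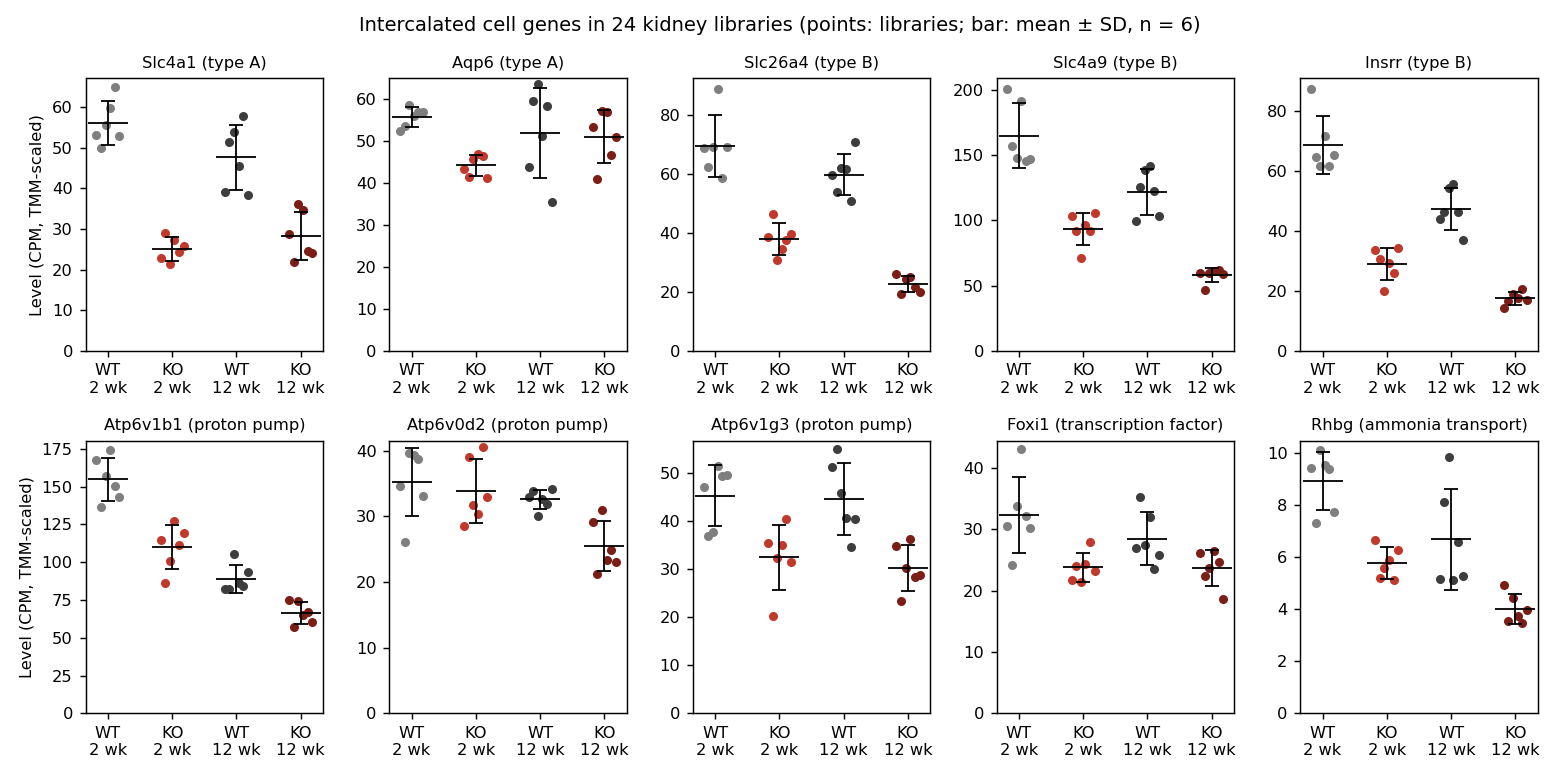
Level of each of the 10 genes (vertical axis, TMM-scaled CPM, starting at 0) in the 24 libraries by group (horizontal axis); points are libraries, and the bars give the mean ± SD of 6 libraries. Slc26a4, Slc4a9 and Insrr step down from wild type to knockout at both durations with no overlap. For Aqp6 at 12 weeks all knockout libraries lie within the wider wild-type range.

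Slc26a4, which encodes pendrin, was the most reduced exchanger gene at 12 weeks. Its 6 wild-type libraries at 2 weeks ranged from 58.4 to 88.8 CPM with a median of 68.9, and the knockout libraries from 30.7 to 46.5 CPM with a median of 38.0. At 12 weeks wild type ranged from 50.8 to 70.9 CPM (median 60.6) and knockout from 19.1 to 25.9 CPM (median 23.0). The highest knockout library thus lay below the lowest wild-type library at each duration. Slc26a4 fell to 55.6% of wild type at 2 weeks (log2 fold change -0.85 with an SE of 0.10, edgeR adjusted p = 3.99e-06) and to 38.7% at 12 weeks (log2 fold change -1.37 with an SE of 0.10, edgeR adjusted p = 3.51e-07). By unadjusted p it ranked 442 among the 17286 tested genes at 2 weeks and 10 at 12 weeks.

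Slc4a9, the basolateral exchanger gene of type B cells, had a level per exon length of 25.8 ± 3.87 FPKM (mean ± SD, n = 6) in wild type at 2 weeks, against 22.3 ± 3.38 for Slc26a4 and 12.0 ± 1.71 for Insrr. In wild type at 12 weeks Slc4a9 and Slc26a4 stood at 19.0 ± 2.75 and 19.2 ± 2.27 FPKM. In CPM the wild-type libraries at 2 weeks ran from 146 to 201 (median 152) and the knockout libraries from 71.3 to 106 (median 94.2). At 12 weeks the wild-type range of Slc4a9 was 99.6 to 142 CPM (median 124) and the knockout range 46.7 to 62.3 CPM (median 59.8). The groups were apart at both durations. The fall was to 57.6% of wild type at 2 weeks (log2 fold change -0.80 with an SE of 0.10, edgeR adjusted p = 1.01e-05) and to 48.6% at 12 weeks (log2 fold change -1.04 with an SE of 0.10, edgeR adjusted p = 3.6e-06).

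Insrr encodes the insulin receptor-related receptor, which senses alkaline extracellular pH. Wild-type libraries at 2 weeks held 61.6 to 87.3 CPM (median 65.0) and knockout libraries 19.9 to 34.4 CPM (median 29.9). At 12 weeks the ranges were 36.9 to 55.6 CPM in wild type (median 46.4) and 14.2 to 20.5 CPM in knockout (median 17.3). No knockout library reached a wild-type one. The log2 fold change of Insrr was -1.22 at 2 weeks (SE 0.12, edgeR adjusted p = 5.67e-07) and -1.41 at 12 weeks (SE 0.11, edgeR adjusted p = 5.78e-07). Insrr (chromosome 3, 87796951 to 87816101, plus strand, mm10) lies within Pear1 on the opposite strand. None of its exon bases is an exon of Pear1 (0 shared bases), but the sources used here do not say whether reads were counted by strand, so intronic reads of Pear1 cannot be kept apart.

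Slc4a1, the anion exchanger gene of type A cells, is also the gene of the band 3 protein of red cells, and counts per gene do not separate the kidney transcript from the red cell one. Wild-type libraries at 2 weeks ranged from 50.1 to 64.9 CPM (median 54.4) and knockout libraries from 21.3 to 29.1 CPM (median 25.1). At 12 weeks the ranges were 38.3 to 57.8 CPM (median 48.4) and 21.9 to 36.3 CPM (median 26.6). The groups were apart at both durations. Slc4a1 fell to 45.5% of wild type at 2 weeks (log2 fold change -1.14 with an SE of 0.08, edgeR adjusted p = 2.14e-08) and to 60.7% at 12 weeks (log2 fold change -0.72 with an SE of 0.14, edgeR adjusted p = 0.0012).

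Red cell genes were read beside Slc4a1 in the same libraries. Of 12 listed red cell genes 11 were matched, and Ahsp was not. Their summed level ranged from 26.1 to 99.3 CPM in wild type and 13.9 to 171 CPM in knockout at 2 weeks, and from 7.11 to 33.7 and 6.90 to 70.8 CPM at 12 weeks. In wild type the median of that sum was 75.1 CPM at 2 weeks and 10.5 CPM at 12 weeks, while the Slc4a1 mean was 56.1 ± 5.42 and 47.6 ± 8.02 CPM. In knockout the median of the sum was 32.3 CPM at 2 weeks, below that of wild type as Slc4a1 was, and 21.9 CPM at 12 weeks, above it. Rhag had 0 counts in all wild-type libraries at 12 weeks. Of the 7 red cell genes that could be tested, none was called lower in knockout at either duration. Epb42, the gene of a membrane skeleton protein, was the 1 called higher, at 2 weeks (0.608 ± 0.314 to 2.33 ± 0.539 CPM, edgeR adjusted p = 6.82e-05). Of all tested genes 13.4% were called lower at 2 weeks and 17.7% at 12 weeks. Log2 fold changes were negative for 5 of these 7 at 2 weeks and 1 at 12 weeks. At 2 weeks the 95% intervals of Hba-a1 (-1.81 to 1.20) and Hbb-bs (-1.93 to 1.08) held the -1.14 of Slc4a1. Those of Hba-a2, Hbb-bt and Alas2 held it too, and those of Klf1 and Epb42 did not. The missing calls thus do not show that red cell RNA was unchanged. The part of red cell RNA in the Slc4a1 values was not tested.

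Aqp6 encodes an intracellular anion-conducting aquaporin of type A cells. The 2-week wild-type libraries spanned 52.2 to 58.4 CPM (median 56.4) and the knockout libraries 41.2 to 46.8 CPM (median 44.4), so the groups were apart though the difference was small. At 12 weeks the ranges were 35.4 to 63.4 CPM (median 54.8) and 40.9 to 57.0 CPM (median 52.1), and all knockout libraries lay within the wild-type range. Aqp6 fell to 80.8% of wild type at 2 weeks (log2 fold change -0.31 with an SE of 0.06, edgeR adjusted p = 0.00123). Its log2 fold change at 12 weeks was 0.00 (95% interval -0.28 to 0.28, edgeR adjusted p = 0.999). The call at 2 weeks ended without a scaling factor (log2 fold change -0.17, edgeR adjusted p = 0.0758).

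**Figure D2:**
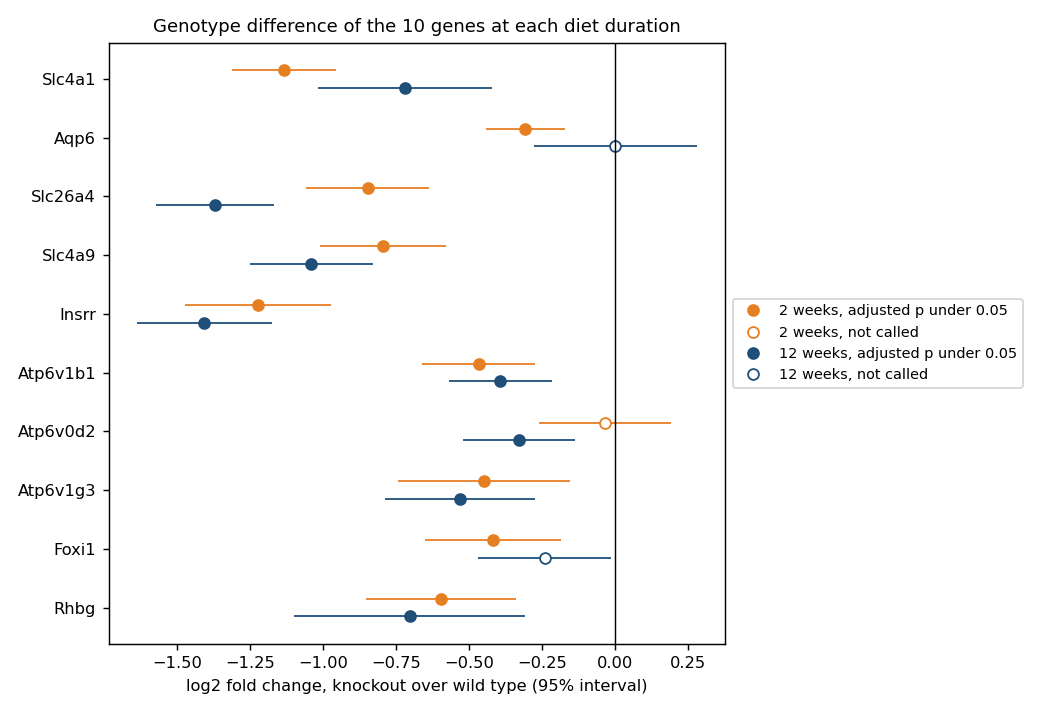
Log2 fold change of knockout over wild type (horizontal axis) for the 10 genes (vertical axis) at 2 weeks (orange) and 12 weeks (blue); lines are 95% intervals of the edgeR fit, filled points are called and open points are not. The type B genes lie between -1.41 and -0.80, and Aqp6 at 12 weeks sits at 0.00.

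The type A and type B genes were then set against each other within each library, which needs no scaling between libraries. Per exon length, the count of Slc4a1 was 0.517 of that of Slc26a4 in wild type at 2 weeks (geometric mean, range 0.429 to 0.706) and 0.422 in knockout (0.375 to 0.499). At 12 weeks the ratio of Slc4a1 to Slc26a4 was 0.504 in wild type (0.344 to 0.723) and 0.787 in knockout (0.702 to 0.945). The knockout libraries thus had the lower ratio at 2 weeks and the higher one at 12 weeks, and the groups overlapped at each duration; at 12 weeks only wild-type replicate 5, at 0.723, was above the lowest knockout libraries. The difference of the mean log2 ratio, knockout minus wild type, was -0.29 at 2 weeks (SE 0.11, exact permutation test, two-sided, p = 0.0195, adjusted over both durations 0.0195). At 12 weeks it was 0.64 (SE 0.17, exact permutation test, p = 0.00649, adjusted 0.013). The smallest p this design allows is 0.00216. The change between durations was 0.94 on the log2 scale (exact permutation of genotype labels within each duration, 853776 relabellings, p = 0.000103). That permutation was added after these values were seen. It assumes no genotype difference at either duration, so its p does not test the change between durations alone.

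The other 5 pairs of a type A and a type B gene are given as values only, since they share genes and libraries with the tested pair. Against Slc4a9, Slc4a1 had a log2 difference of -0.34 at 2 weeks and 0.31 at 12 weeks. Against Insrr the differences of Slc4a1 were 0.10 and 0.68. The Aqp6 differences were above 0 for each type B gene at both durations: 0.53 and 1.39 against Slc26a4, 0.48 and 1.05 against Slc4a9, and 0.92 and 1.42 against Insrr. At 12 weeks knockout and wild type did not overlap for any of the 3 Aqp6 pairs. Aqp6 stood at 1.10 times the Slc26a4 count per exon length in wild type at 12 weeks and 2.89 times in knockout.

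**Figure D3:**
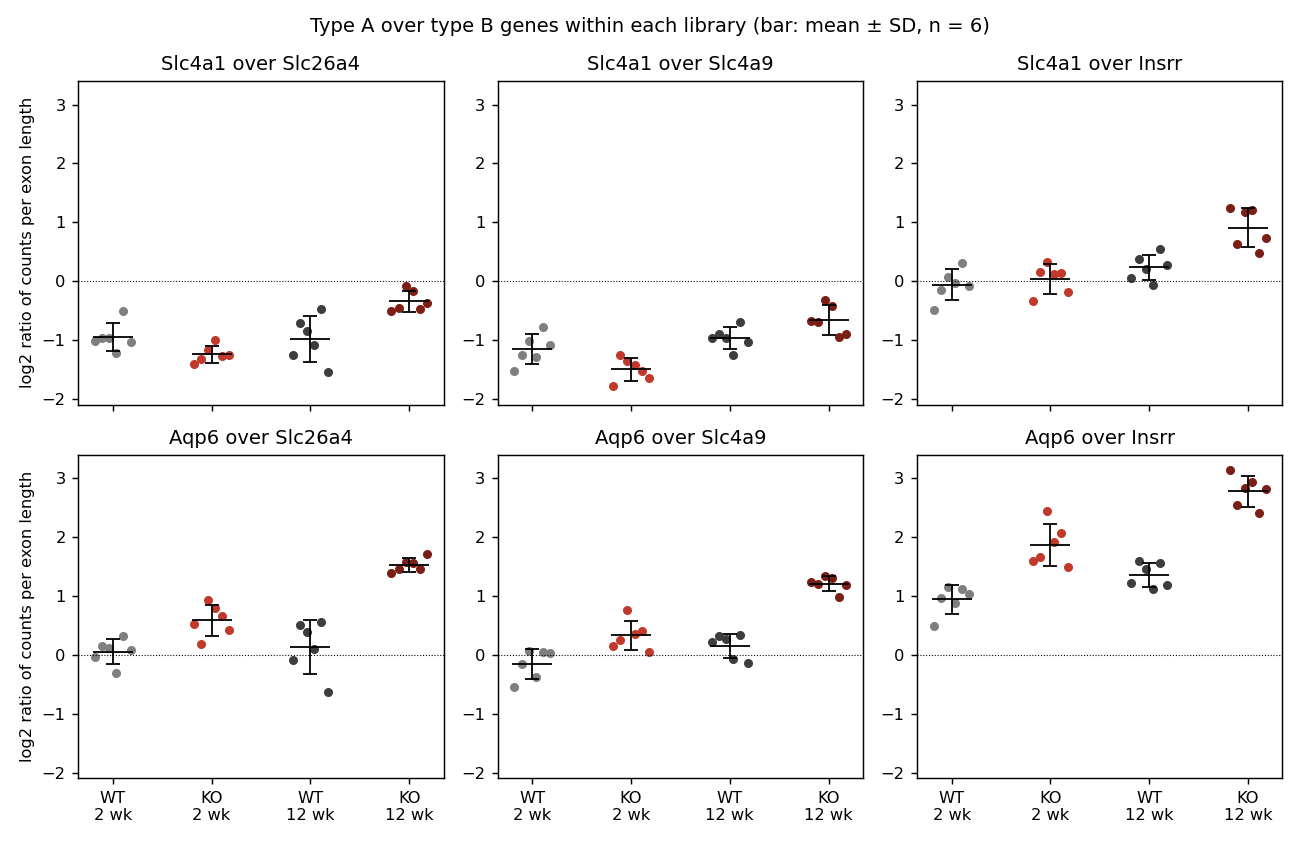
Log2 ratio of counts per exon length (vertical axis) of a type A gene over a type B gene in each library, by group (horizontal axis); bars give the mean ± SD of 6 libraries and the dotted line marks equal levels. Knockout at 12 weeks has the highest mean in all 6 panels, with libraries between -0.51 and -0.08 for Slc4a1 over Slc26a4 and between 1.40 and 1.72 for Aqp6 over Slc26a4.

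Further genes of each type, from lists of 6, gave a mixed picture. For scale, 13.4% of all 17286 tested genes were called lower at 2 weeks and 17.7% at 12 weeks. Called higher were 3144 and 3585 genes. Of the other type A genes 4 were called lower, 1 higher and 1 not at 2 weeks (median log2 fold change -0.32). At 12 weeks none was lower, 2 were higher and 4 were not called (median 0.07). Kit, a receptor tyrosine kinase gene, went from 25.6 ± 3.31 to 19.3 ± 1.68 CPM at 2 weeks (edgeR adjusted p = 0.00494), and its mean was 20.4 ± 2.30 in wild type and 21.2 ± 3.62 CPM in knockout at 12 weeks (edgeR adjusted p = 0.599). The log2 fold changes of Avpr1a, a vasopressin receptor gene, were -0.45 and -0.02, those of Slc26a7, an anion exchanger gene, -0.57 and 0.06, and those of Adgrf5, an adhesion receptor gene, -0.27 and -0.06; each was called at 2 weeks only. Dmrt2, a transcription factor gene, was higher at 12 weeks (log2 fold change 0.58 with an SE of 0.16, edgeR adjusted p = 0.00942). P2ry14, a receptor gene for nucleotide sugars, was higher at both durations, by 1.21 and 1.32 on the log2 scale (edgeR adjusted p = 3.21e-05 and 0.000494), at means of 1.93 to 5.87 CPM. Kit, Adgrf5 and P2ry14 are also expressed by other cells of the kidney, and P2ry14 and Avpr1a lie within genes on the opposite strand.

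In the list of other type B genes 2 of 6 were called lower at both durations. All tested genes gave 13.4% lower at 2 weeks and 17.7% at 12 weeks. Oxgr1, the gene of the receptor for alpha-ketoglutarate, fell by 0.70 and 0.86 on the log2 scale (edgeR adjusted p = 2.85e-05 and 0.000226). The homeobox gene Hmx2 fell by 0.85 and 1.03 on the log2 scale (edgeR adjusted p = 0.00113 and 0.000384); it lies within Fgfr2 on the opposite strand, with no exon base shared. Spink8 was called higher at 2 weeks (log2 fold change 0.59, edgeR adjusted p = 0.024) and not at 12 weeks. Slc4a8, a sodium-dependent chloride-bicarbonate exchanger gene, Parm1 and Sh2d4b were called at neither duration, with log2 fold changes from -0.03 to 0.31. The median of the 6 was 0.00 at 2 weeks and 0.06 at 12 weeks.

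**Figure D4:**
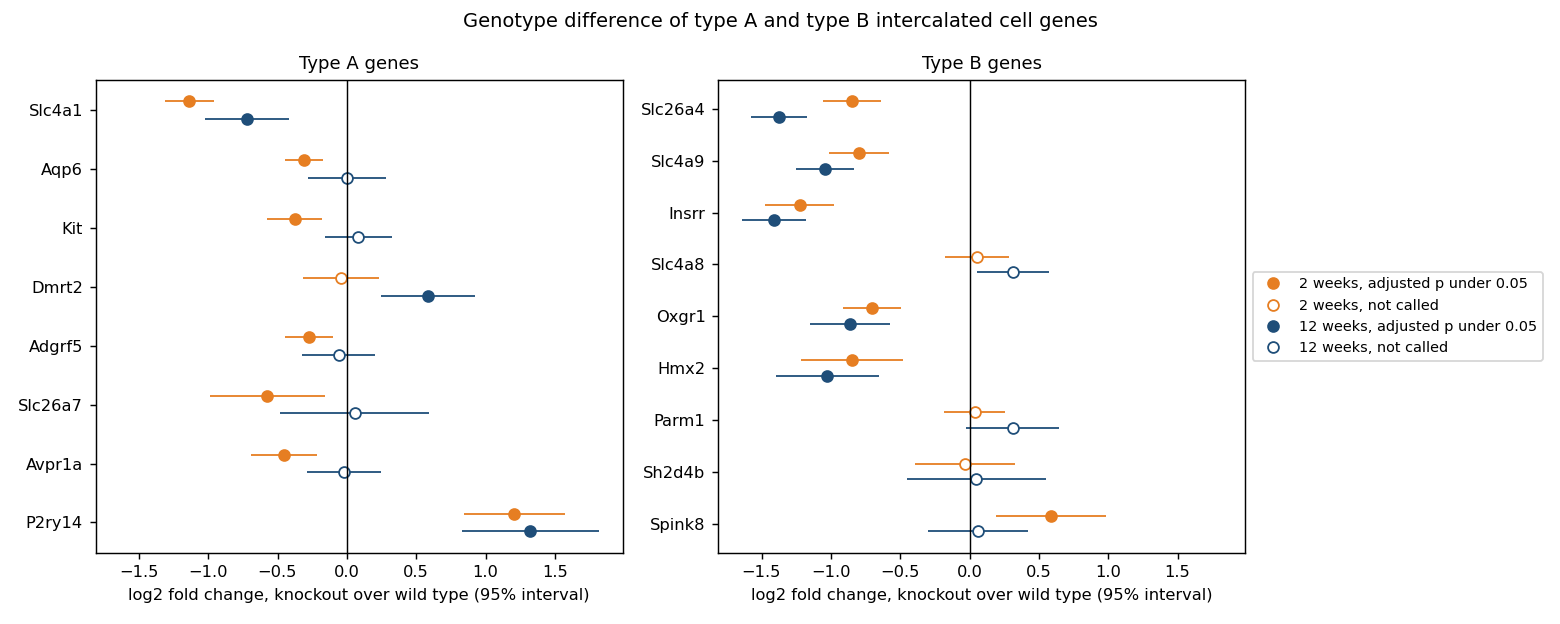
Log2 fold change of knockout over wild type (horizontal axis, with 95% intervals) of type A genes (left) and type B genes (right) at 2 weeks (orange) and 12 weeks (blue); filled points are called. In the left panel Slc4a1 alone is called lower at 12 weeks, and in the right panel Slc26a4, Slc4a9, Insrr, Oxgr1 and Hmx2 are called lower at both durations.

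The members Atp6v1b1, Atp6v1g3 and Atp6v0d2 encode V-ATPase subunit isoforms that are enriched in intercalated cells. Atp6v1b1, of the catalytic head, had the highest mean level per exon length of the 10 genes in the 2-week groups, at 35.3 ± 3.26 FPKM in wild type. At 12 weeks it stood at 20.3 ± 2.07 FPKM in wild type, below the means of Atp6v1g3 (23.6) and Aqp6 (21.4), and at 15.2 ± 1.63 FPKM in knockout, below Aqp6 (21.0 ± 2.60) and Atp6v1g3. Its wild-type libraries at 2 weeks ran from 137 to 174 CPM (median 154) and its knockout libraries from 86.3 to 127 CPM (median 113); at 12 weeks the ranges were 82.1 to 105 (median 85.3) and 57.1 to 74.9 CPM (median 66.0). The genotypes were apart within each duration. Atp6v1b1 fell to 72.4% of wild type at 2 weeks (log2 fold change -0.47 with an SE of 0.09, edgeR adjusted p = 0.000713) and to 76.2% at 12 weeks (log2 fold change -0.39 with an SE of 0.08, edgeR adjusted p = 0.00183). The 12-week call ended without a scaling factor (log2 fold change -0.16, edgeR adjusted p = 0.0989).

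Atp6v1g3 encodes a stalk subunit isoform. Its wild-type libraries held 36.8 to 51.3 CPM (median 48.1) at 2 weeks and 34.6 to 54.8 CPM (median 43.1) at 12 weeks, against 20.1 to 40.3 (median 33.7) and 23.3 to 36.1 CPM (median 29.4) in knockout. The groups overlapped at both durations. The log2 fold change of Atp6v1g3 was -0.45 at 2 weeks (SE 0.14, edgeR adjusted p = 0.0208) and -0.53 at 12 weeks (SE 0.12, edgeR adjusted p = 0.00312). Without a scaling factor the 2-week value was -0.31 (edgeR adjusted p = 0.146).

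Atp6v0d2, of the membrane sector, was the member that did not pass at 2 weeks. Wild type ranged from 26.0 to 39.6 CPM (median 36.7) and knockout from 28.5 to 40.5 CPM (median 32.3), so that the ranges nearly coincided (log2 fold change -0.03, 95% interval -0.26 to 0.19, edgeR adjusted p = 0.854). At 12 weeks wild type held 30.0 to 34.2 CPM (median 32.8) and knockout 21.2 to 31.0 CPM (median 24.2), a fall to 79.7% (log2 fold change -0.33 with an SE of 0.09, edgeR adjusted p = 0.0101); without a scaling factor this was -0.09 (edgeR adjusted p = 0.351). Atp6v0d2 is also expressed by macrophages and osteoclasts. Called higher in knockout were 3144 of all 17286 tested genes at 2 weeks and 3585 at 12 weeks. All 12 listed macrophage genes were called higher at 2 weeks and 11 of 12 at 12 weeks. Their summed level was 327 to 431 CPM in wild type and 1064 to 2323 CPM in knockout at 2 weeks, and 296 to 712 and 1380 to 2909 CPM at 12 weeks. None of these genes was at 0 in all libraries of a group, and the part of macrophage RNA in the Atp6v0d2 values was not tested.

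Among the other subunits of the same pump, Atp6v1c2 and Atp6v0a4 were grouped with the intercalated cell isoforms. Whole-kidney counts do not show which cells their RNA came from. In wild type at 2 weeks Atp6v0a4 had a mean of 318 ± 39.0 CPM, against 155 ± 14.3 CPM for Atp6v1b1. Atp6v1c2 fell from 40.7 ± 4.06 to 22.5 ± 2.09 CPM at 2 weeks and from 28.9 ± 2.69 to 13.8 ± 2.25 CPM at 12 weeks (edgeR adjusted p = 5.42e-07 and 8.16e-06). Atp6v0a4 had log2 fold changes of -0.17 (edgeR adjusted p = 0.188) and -0.33 (edgeR adjusted p = 0.0495). Of 17 subunit and accessory genes found in most cells, 7 were called lower at 2 weeks (13.4% of all tested genes were) and 13 at 12 weeks (17.7%). None of the 17 was called higher, and their median log2 fold changes were -0.18 and -0.32. The smallest adjusted p among them at 2 weeks were those of Atp6v0c (log2 fold change -0.35), Atp6v1g1 (-0.31) and Atp6v1e1 (-0.26), and at 12 weeks those of Atp6v1e1 (-0.42), Atp6v1d (-0.33) and Atp6v0d1 (-0.32).

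**Figure D5:**
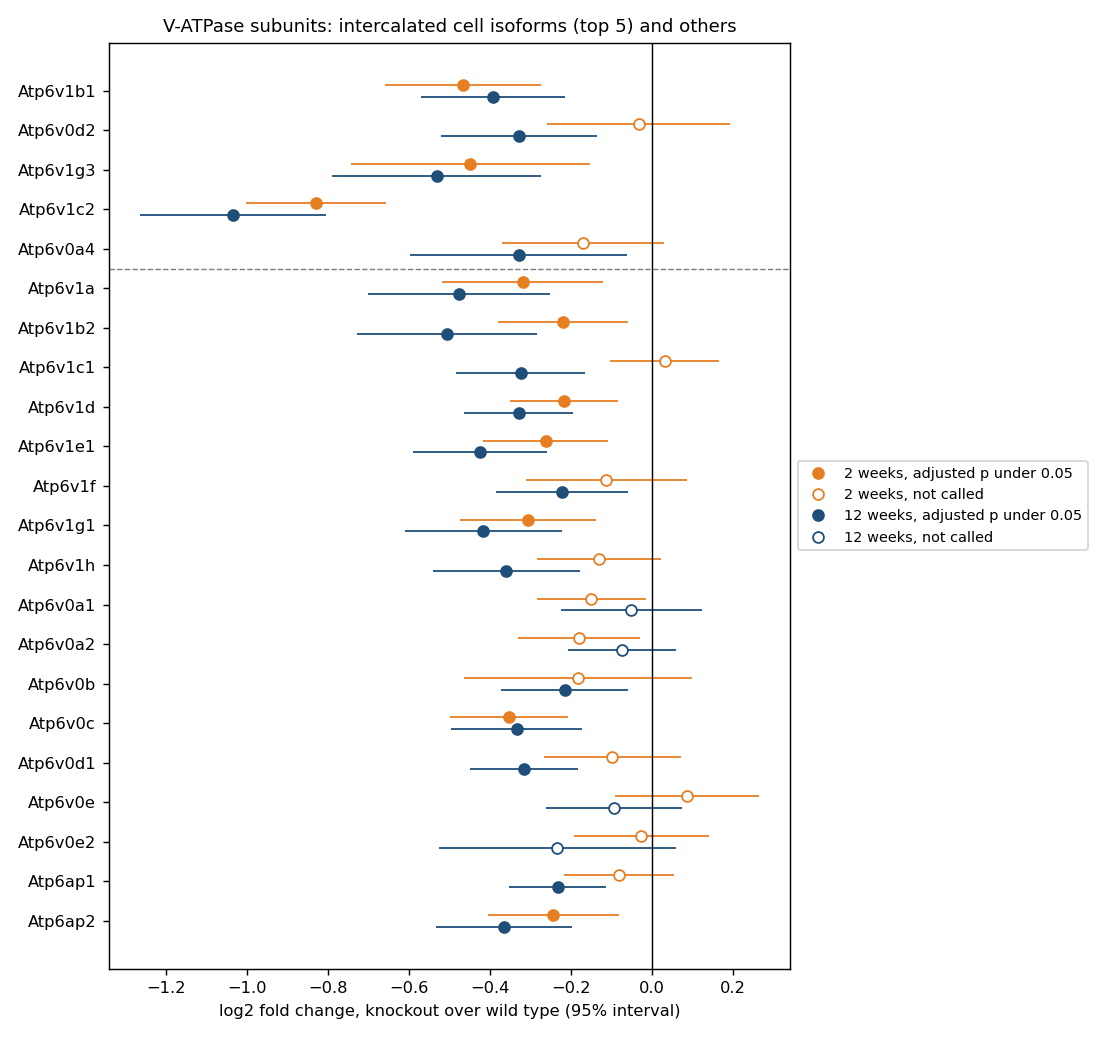
Log2 fold change of knockout over wild type (horizontal axis, with 95% intervals) of 22 V-ATPase genes at 2 weeks (orange) and 12 weeks (blue). The dashed line parts the 5 genes grouped as intercalated cell isoforms from 17 other genes, and filled points are called. Atp6v1c2 lies lowest at both durations, and the 12-week points of the 17 other genes are all below 0.

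Foxi1 libraries held 24.2 to 43.1 CPM (median 31.4) in wild type and 21.4 to 28.0 CPM (median 23.6) in knockout at 2 weeks, overlapping through 1 wild-type library, replicate 2 at 24.2 CPM. Foxi1 fell to 74.9% of wild type (log2 fold change -0.42 with an SE of 0.11, edgeR adjusted p = 0.00729), a call that ended without a scaling factor (log2 fold change -0.28, edgeR adjusted p = 0.0782). At 12 weeks wild type held 23.6 to 35.2 CPM (median 27.2) and knockout 18.6 to 26.5 CPM (median 24.1). The groups overlapped and the log2 fold change was -0.24 (95% interval -0.47 to -0.01, edgeR unadjusted p = 0.0399, adjusted p = 0.0889).

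Because Foxi1 is a forkhead factor, promoter windows of some members were read for forkhead letters. RefSeq windows of 300 bases on GRCm38.p6, the patch release of the mm10 build, were kept for 5 members: Aqp6, Atp6v1b1, Atp6v1g3, Foxi1 and Slc26a4. The remaining members, Slc4a9 among them, were left out of this reading. The member counts of letters below therefore do not cover them. Those of 4 members are shown: Slc26a4 and Atp6v1b1, called lower at both durations, and Aqp6 and Foxi1, called lower at 2 weeks and not at 12 weeks. In that order they lie at chr12:31559935-31560234 (minus strand), chr6:83742767-83743066 (plus strand), chr15:99600950-99601249 (plus strand) and chr11:34208040-34208339 (minus strand), and they run from 250 bases before a transcript start to 50 after it, 5′ to 3′. Capitals mark forkhead letters on either strand: the core TGTTT, or a longer form that holds the core and ends in 2 further letters, which is TGTTTAC in one version while the other version reads TGTTTGT.
Slc26a4: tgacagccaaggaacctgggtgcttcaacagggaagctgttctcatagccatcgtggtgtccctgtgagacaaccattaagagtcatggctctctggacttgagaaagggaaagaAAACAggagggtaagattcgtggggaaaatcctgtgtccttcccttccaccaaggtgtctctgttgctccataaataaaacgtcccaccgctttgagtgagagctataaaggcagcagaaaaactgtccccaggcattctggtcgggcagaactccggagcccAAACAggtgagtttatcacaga
Atp6v1b1: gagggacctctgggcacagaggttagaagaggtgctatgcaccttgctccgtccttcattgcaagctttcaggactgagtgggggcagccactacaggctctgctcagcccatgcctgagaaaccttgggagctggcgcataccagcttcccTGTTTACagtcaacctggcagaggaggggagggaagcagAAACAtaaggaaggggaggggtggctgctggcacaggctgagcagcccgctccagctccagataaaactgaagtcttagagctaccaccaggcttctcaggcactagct
Aqp6: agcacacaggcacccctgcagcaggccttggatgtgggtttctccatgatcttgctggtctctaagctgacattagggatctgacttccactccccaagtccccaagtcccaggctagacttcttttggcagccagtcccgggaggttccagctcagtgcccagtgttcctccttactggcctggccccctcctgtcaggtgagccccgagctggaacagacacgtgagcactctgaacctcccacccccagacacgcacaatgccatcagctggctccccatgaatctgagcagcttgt
Foxi1: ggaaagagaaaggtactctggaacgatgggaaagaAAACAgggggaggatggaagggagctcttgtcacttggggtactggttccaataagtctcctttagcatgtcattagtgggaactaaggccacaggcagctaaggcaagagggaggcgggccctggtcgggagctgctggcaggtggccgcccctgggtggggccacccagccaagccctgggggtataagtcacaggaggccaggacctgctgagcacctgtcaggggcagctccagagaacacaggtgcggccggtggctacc
The Atp6v1b1 window held TGTTTAC once, 98 bases before the start, and TGTTT once more on the other strand. The Slc26a4 window held TGTTT 2 times, both on the opposite strand, the Foxi1 window held it 1 time, and the Aqp6 window held none of these letters. That Aqp6 window ends at 99601249, before the counted Aqp6 gene begins at 99601400 in the annotation used here. The other windows shown hold the annotated start of their gene. TGTTT was found in 4 of the 5 member windows and in 50.5% of all 32851 windows, TGTTTAC in 1 of 5 and 3.65%, and TGTTTGT in 1 of 5, that of Atp6v1g3, and 6.61%. A match is a run of letters, not a binding site.

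Rhbg, an ammonia transporter gene of the basolateral membrane, had the lowest level of the 10 genes, at 4.61 ± 0.580 FPKM in wild type at 2 weeks. Wild-type libraries held 7.31 to 10.1 CPM (median 9.42) and knockout libraries 5.13 to 6.67 CPM (median 5.73) at 2 weeks; at 12 weeks the ranges were 5.13 to 9.85 (median 5.94) and 3.48 to 4.95 CPM (median 3.87). The groups were apart at both durations, though 4 wild-type libraries at 12 weeks lay between 5.13 and 6.60 CPM, close to the knockout range. Rhbg fell by 0.60 at 2 weeks (SE 0.12, edgeR adjusted p = 0.000988) and by 0.70 at 12 weeks on the log2 scale (SE 0.19, edgeR adjusted p = 0.00783). Of its 1937 exon bases 1190 are also exons of the predicted gene Gm38392 on the same strand, so reads there may have been left uncounted and the level of Rhbg is uncertain. Its relative Rhcg, an ammonia transporter gene without such an overlap, fell from 158 ± 11.4 to 108 ± 9.62 CPM at 2 weeks, and by 0.68 on the log2 scale at 12 weeks (edgeR adjusted p = 2.81e-05 and 0.000604).

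The list of 12 other intercalated cell genes includes Rhcg, Atp6v1c2 and Atp6v0a4. Over all tested genes 13.4% were called lower at 2 weeks and 17.7% at 12 weeks. In this list 6 were called lower and 1 higher at each duration (median log2 fold changes -0.30 and -0.28). The one that rose was Atp12a, a proton-potassium pump gene of the colon and collecting duct, from 1.66 ± 0.902 to 4.34 ± 0.914 CPM at 2 weeks and from 0.699 ± 0.496 to 2.18 ± 0.812 CPM at 12 weeks (edgeR adjusted p = 0.00151 and 0.00619). Exons of Atp12a overlap those of an antisense gene, so its values are uncertain. The gastric-type proton pump gene Atp4a fell at both durations, by 0.43 and 0.60 on the log2 scale (edgeR adjusted p = 0.00396 and 0.0118), as did Bsnd, a chloride channel subunit gene, by 0.52 and 0.32 (edgeR adjusted p = 0.000265 and 0.0241). The transcription factor gene Tfcp2l1 fell by 0.28 and 0.39 (edgeR adjusted p = 0.0306 and 0.00396), and Hepacam2 by 0.49 at 2 weeks (edgeR adjusted p = 0.00555) with a log2 fold change of -0.18 at 12 weeks (edgeR adjusted p = 0.238). Car2, the cytosolic carbonic anhydrase gene shared with other tubule cells, had log2 fold changes of 0.11 and -0.23 (edgeR adjusted p = 0.425 and 0.14). Kcnma1 and Slc26a11 were called at neither duration.

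Neighbouring cells and upstream acid-base steps were measured with the same fits. Over all tested genes 31.6% were called at 2 weeks, 13.4% lower, and 38.5% at 12 weeks, 17.7% lower. Of 10 principal cell genes 3 were called lower and 1 higher at 2 weeks (median log2 fold change 0.01), and 5 lower and 1 higher at 12 weeks (median -0.44). Aqp3, the basolateral water channel gene, fell by 0.89 and 1.11 on the log2 scale (edgeR adjusted p = 1.85e-06 and 0.000243). Aqp2 was called at neither duration (log2 fold changes 0.01 and -0.51, edgeR adjusted p = 0.986 and 0.0897). Of 8 proximal tubule genes of bicarbonate and ammonia handling 5 were called lower at 2 weeks and 4 at 12 weeks, none higher. Car14, a membrane carbonic anhydrase gene, fell by 0.86 at 2 weeks (edgeR adjusted p = 0.000374), and Slc4a4, the sodium-bicarbonate cotransporter gene, fell by 0.73 at 12 weeks (edgeR adjusted p = 0.00211).

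Whether the genotype difference of the members changed with duration was tested as an interaction in 1 fit of all 24 libraries. None of the 10 passed in edgeR, nor in DESeq2, against 0.174% of all genes called (30 of 17286 in edgeR, and 133 in DESeq2). At an unadjusted edgeR p under 0.05 there were 3. Of all 17286 tested genes at least 1778, the rank of Atp6v1h, were under that threshold as well. The 0.174% is thus not the background for these 3. For Slc26a4 the log2 difference, 12 weeks minus 2 weeks, was -0.53 (95% interval -0.83 to -0.23, edgeR adjusted p = 0.14). Slc4a1 differed the other way, by 0.41 (95% interval 0.07 to 0.75, edgeR adjusted p = 0.349), and Aqp6 by 0.31 (95% interval 0.02 to 0.60, edgeR adjusted p = 0.447). All 6 other type A genes had an interaction above 0, from 0.12 to 0.63 on the log2 scale, and none was called (edgeR adjusted p from 0.189 to 0.92). The median interaction of all tested genes was -0.01, and their share above 0 was not counted. The 95% intervals of Adgrf5 (-0.10 to 0.52), P2ry14 (-0.47 to 0.70) and Slc26a7 (-0.05 to 1.30) held 0. Those of Kit, Dmrt2 and Avpr1a did not. Of the 6 other type B genes 3 were above 0 as well, Slc4a8 (0.26), Parm1 (0.27) and Sh2d4b (0.08), and none was called. For Slc4a9, Insrr and Atp6v1b1 the intervals were -0.55 to 0.06, -0.53 to 0.16 and -0.19 to 0.33.

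Across durations all 10 genes had their highest mean in wild type at 2 weeks, and the lowest mean was in knockout at 12 weeks for all but Slc4a1 and Aqp6, whose lowest was in knockout at 2 weeks. With the difference in counting between the library sets not tested, 4 members were lower in wild type at 12 than at 2 weeks and none was higher, against 14.7% of all genes lower: Atp6v1b1 (log2 fold change -0.80 with an SE of 0.09, edgeR adjusted p = 5.53e-08), Insrr (-0.54, edgeR adjusted p = 0.000815), Slc4a9 (-0.44, edgeR adjusted p = 0.00208) and Rhbg (-0.42, edgeR adjusted p = 0.0344). The Rhbg call ended without any 1 of wild-type replicates 3, 4 or 5 at 2 weeks or 1, 4 or 6 at 12 weeks (edgeR adjusted p from 0.0583 to 0.0743). In knockout 6 were lower and none higher, against 16.1% of all genes lower. Besides those 4 genes they were Slc26a4 (log2 fold change -0.74 with an SE of 0.11, edgeR adjusted p = 3.05e-06) and Atp6v0d2 (-0.41, SE 0.10, edgeR adjusted p = 0.00316). Slc4a1 had a value of 0.18 there (95% interval -0.07 to 0.42). In the order of group means, neighbouring groups overlapped throughout for Atp6v0d2, Atp6v1g3, Foxi1 and Aqp6, whereas knockout at 12 weeks lay apart from the next group for Slc26a4, Slc4a9, Atp6v1b1 and Rhbg. Without a scaling factor 9 members were called lower in wild type at 12 weeks, where the median of all genes also shifted to -0.17.

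Profiles were compared by the root-mean-square (RMS) difference of log2 CPM over the 24 libraries, each profile centred on its own mean, among 13598 genes of at least 1 CPM on average with an established symbol. The gene most like Slc26a4 was Atp6v1c2 (0.20), followed by Slc4a9 (0.23) and Syn2 (0.26). Closest to Atp6v1b1 were Rhcg (0.16), Scnn1a, a subunit gene of the epithelial sodium channel (0.17), and Wnk4, a kinase gene of distal salt transport (0.17). Slc4a1 was closest to Atp7b, a copper transporter gene (0.24), Csad (0.25) and Wscd2 (0.26), none of which is in the lists used here. Among the members the 2 closest pairs were Atp6v0d2 with Foxi1 and Slc26a4 with Slc4a9 (both 0.23), and the most distant was Insrr with Aqp6 (0.73). Profiles were not scaled by how much a gene varies. Genes that change little, such as Atp6v0d2 and Foxi1, can therefore lie close without a shared pattern.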

How the data were processed

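RNA of 24 kidney samples was measured by bulk sequencing. Per the labels' protocols, a Maxwell RSC simplyRNA kit served for extraction and a NEBNext Ultra kit for library preparation. Each deposited file lists whole-number counts of reads by Ensembl gene for 1 library, not normalized; per the submitters' processing notes, fastp, STAR 2.5, HTSeq 0.6.1 and the build mm10 were used. The sources used here do not state their options, whether strand was used, or the annotation release. Of 54532 identifiers, 54495 matched GENCODE M21 (mm10), which gave symbols, positions and exon lengths.

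Counts were tested with edgeR 4.0.16 (TMM, robust quasi-likelihood test, two-sided) in R 4.3.3. filterByExpr (minimum count 10, minimum total 15) kept 17286 genes, and p-values were adjusted by the Benjamini-Hochberg method over all of them. Each genotype comparison used the 12 libraries of its duration; interaction and duration comparisons used all 24. SEs of log2 fold changes were derived from the F statistic. Ratios of 2 genes had 0.5 added to each count. The fits were tested on simulated data, and replicate libraries of a group all differed beyond sampling noise. Replicate numbers were not taken as pairs, as the library titles state no pairing. Residuals of equal-numbered libraries correlated between -0.28 and 0.17. Unequal-numbered libraries were not compared, so this check cannot show that pairing is absent.

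Named genes are the members, Lrp2, genes of the type A, type B, intercalated and red cell lists, up to 3 called genes with the smallest adjusted p from each other list, and the 3 nearest profiles of Slc4a1, Slc26a4 and Atp6v1b1. Of the other lists, only genes that a statement turns on are given. The members and lists were chosen with earlier results of these data known. Alternatives were DESeq2 1.42.0, RLE, upper-quartile and no scaling, leaving out the filter, requiring 1 CPM on average, a replicate block, all 24 libraries in 1 fit, and each library left out in turn. Figures were drawn with matplotlib 3.10.9.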

Additional observations from a re-analysis of the deposited data

Results flagged for a closer look

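The log2 difference of the Slc4a1 to Slc26a4 ratio, knockout minus wild type, was 0.94 higher at 12 weeks (0.64) than at 2 weeks (-0.29). An exact permutation test of genotype labels within each duration, added after the values were seen, gave p = 0.000103. It assumes no genotype difference at either duration, so its p does not test the change between durations alone. Duration and library set cannot be told apart. Neither gene passed as an interaction (edgeR adjusted p = 0.349 for Slc4a1 and 0.14 for Slc26a4). Among 40 sets of 6 libraries (10 genes by 4 groups), 2 held a library far from the other 5, and chance flags about 1 in 20. Wild-type replicate 4 at 2 weeks held 88.8 CPM of Slc26a4, against 58.4 to 69.0 CPM in the others. Knockout replicate 2 at 12 weeks held 46.7 CPM of Slc4a9, against 59.0 to 62.3 CPM in the others.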

How the results depend on the processing

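Counts of called members were 9, 8, 0, 4 and 6 (genotype at 2 weeks, genotype at 12 weeks, interaction, duration in wild type, duration in knockout), and DESeq2, RLE and upper-quartile scaling, both other filters and the replicate block gave the same counts; so did 1 fit of all 24 libraries, run for the genotype counts. Without a scaling factor the counts were 6, 6, 0, 9 and 6. The median of all genes then moved to 0.13 at 2 weeks and 0.23 at 12 weeks, and the higher share of calls from 57.5% to 80.2% and from 53.9% to 86.7%; for duration it went from 52.4% to 35.5% in knockout and from 51.8% to 1391 higher against 5581 lower calls in wild type, and for the interaction from 66.7% to 87.1%. Left-out libraries gave 9 to 9, 8 to 8, 0 to 0, 3 to 5 and 6 to 7 members. Of 1090 fold changes of single members under an alternative, none that was called reversed, 11 lost and 8 gained a call. For all genes, the interaction calls were 30 in edgeR, 133 in DESeq2 and 22 to 56 with a library left out, the 56 being without knockout replicate 3 at 12 weeks. In the duration comparisons Slc4a1 and Slc26a4 gained a call in wild type without 12-week replicate 5 (-0.31, edgeR adjusted p = 0.0476) and replicate 6 (-0.28, edgeR adjusted p = 0.0459), and Aqp6 in knockout without 12-week replicate 2 (0.26, edgeR adjusted p = 0.0479). The Slc4a1 to Slc26a4 difference was -0.29 and 0.64 with 5 counts added in place of 0.5 as well (exact permutation adjusted p = 0.0195 and 0.013), and ranged from -0.35 to -0.20 and from 0.53 to 0.75 with a library left out (exact permutation adjusted p up to 0.039 and 0.0195). With a replicate block, pairing libraries by number, it was -0.29 and 0.64. An exact test that flips the signs of the 6 paired differences gave an adjusted p = 0.0938 at each duration. The smallest p that sign flips allow is larger than the 0.00216 of the unpaired test. Neither thus passed in that setting, and whether the numbers pair the libraries is not known. Rhbg rests on 44 to 340 counts per library, the lowest of the members.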
